A study of Mus musculus with 4 samples.

Results

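The Bcl2 family decides at the outer mitochondrial membrane whether a cell enters apoptosis, and 10 of its genes were followed in mouse heart ventricle. The 10 genes were taken by symbol from a table of 46603 genes, and each symbol was found once. They are the guardians Bcl2, Bcl2l1 and Mcl1, the pore-forming effectors Bax and Bak1, the BH3-only triggers Bbc3, Pmaip1 and Bid, and the mitophagy receptors Bnip3 and Bnip3l. The C57Bl6/J mice were 8 to 12 weeks old and were either wild type (WT) or P2Y6-null (KO), that is, without the nucleotide receptor encoded by P2ry6. They were injected intraperitoneally each day for 7 days with saline or with isoproterenol, a beta-adrenergic agonist that provokes cardiac hypertrophy, at 50 mg/kg/day. WT saline, WT isoproterenol, KO saline and KO isoproterenol are each 1 library of whole ventricle. The labels do not say how many hearts stand behind a library, nor in which cells P2ry6 was deleted.

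Guardians bind and hold back the effectors, the effectors form the pore through which cytochrome c leaves the mitochondrion, and BH3-only proteins tip that balance. Bnip3 and Bnip3l carry a BH3-like region but are known mainly as receptors that bring mitochondria to autophagosomes, and Bnip3 is a classic hypoxia-induced gene of cardiomyocytes. Cardiomyocytes are long-lived cells packed with mitochondria, and loss of Mcl1 from them is known to cause heart failure in mice. Much control of the family lies in protein binding and location, which transcript levels do not show. Whole-gene totals also do not separate the long and short splice forms of Bcl2l1 or Mcl1, which have opposing actions.

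The libraries held 18771198 to 25637369 reads in the listed genes. P2ry6 stood at 5.11 CPM (counts per 1000000 counted reads) in WT saline and 5.89 in WT isoproterenol, against 0.566 in KO saline and 0.533 in KO isoproterenol, so the genotype labels hold. The KO isoproterenol library stood apart in its makeup. Summed macrophage markers were at 905 CPM there and at 384 to 419 in the other libraries, fibroblast markers at 6081 against 2491 to 3273, and markers of dividing cells at 61.7 against 11.4 to 27.4. Summed cardiomyocyte markers were at 56810 CPM there and at 66320 to 71140 elsewhere, and endothelial markers at 1105 against 1042 to 1131. No marker of these 5 lists was at 0 in any library. The cardiomyocyte list was split in CPM. Myh6, Myl2, Myl3, Tnni3 and Pln were lowest in KO isoproterenol, Myh6 at 22220 against 27010 to 30570. Mybpc3 (5452 against 4062 to 4664), Ryr2 (1445 against 1340 to 1387), Ttn (4295 against 3998 to 4268) and Actn2 (2063 against 1872 to 1976) were highest there, and Tnnt2 lay between. Atrial markers, with 0 genes at 0, stood at 988.5 CPM in KO isoproterenol against 263.4 to 349.8 elsewhere, and lymphocyte markers, also with 0 at 0, at 33.03 against 18.51 to 21.22. Skeletal muscle markers were at 2435 CPM against 1521 to 1913, with 3 of 8 genes at 0 there and 1 in each other library, and adipocyte markers at 3244 against 3894 to 5930. A sum can differ from the bulk of its list. For listed genes with enough reads, scaled by total counts, the median log2 ratio to KO saline was 0.14 (lymphocyte), 0.0014 (skeletal muscle) and 0.29 (adipocyte). To WT isoproterenol it was 0.14, 0.27 and -1.12. The adipocyte sum was thus below KO saline although that median lay above 0. In bulk tissue, fewer cells of a type and less RNA per cell cannot be told apart.

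Per length, Mcl1 and Bnip3 were the most abundant of the 10 genes and Pmaip1 and Bid the least. In CPM per kilobase of exon, Mcl1 averaged 66.7 over the 4 libraries (63.5 to 74.0) and Bnip3 51.2 (38.1 to 68.5), and their ranges overlapped. Bnip3l followed at 14.4 (13.2 to 16.2), Bax at 10.6 (8.65 to 14.0), Bak1 at 7.61 (5.90 to 9.38) and Bcl2l1 at 6.28 (5.28 to 7.10), each overlapping the next. Below a gap came Bbc3 at 1.59 (1.15 to 2.61) and Bcl2 at 1.27 (0.949 to 1.86), which overlapped. Bid at 0.511 (0.367 to 0.637) and Pmaip1 at 0.248 (0.143 to 0.488) closed the order and overlapped each other. Bcl2, the gene that names the family, thus lay far below Mcl1 in each library. The union of all annotated exons served as length, so a long untranslated exon that the heart does not use lowers a gene's value.

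Of the guardians, Mcl1 was nearly level over the 4 libraries. It stood at 220.1 CPM in WT saline, 221.5 in WT isoproterenol, 217 in KO saline and 253 in KO isoproterenol. Bcl2l1, which encodes Bcl-xL, stood at 28.4 CPM in WT saline, 32.6 in WT isoproterenol, 24.2 in KO saline and 30.05 in KO isoproterenol, with the isoproterenol library above the saline library in each genotype. Bcl2 stood at 9.17 CPM in WT saline, 8.69 in WT isoproterenol, 11.7 in KO saline and 17.05 in KO isoproterenol, so that both KO libraries were above both WT libraries.

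Of the effectors, Bax stood at 15.8 CPM in WT saline, 15.5 in WT isoproterenol, 13.6 in KO saline and 22.1 in KO isoproterenol. Bak1 stood at 16.7 CPM in WT saline, 19.8 in WT isoproterenol, 14.2 in KO saline and 22.6 in KO isoproterenol. Both effectors were lowest in KO saline and highest, as deposited, in KO isoproterenol. The BH3-only genes were thinly covered. Bbc3, which encodes PUMA, stood at 2.57 CPM (66 reads) in WT saline, 2.99 (62) in WT isoproterenol, 2.44 (56) in KO saline and 5.54 (104) in KO isoproterenol. Pmaip1, which encodes NOXA, stood at 0.507 CPM (13 reads), 0.483 (10), 0.392 (9) and 1.33 (25) in the same order. Both therefore had 3 libraries close together and KO isoproterenol above them. Bid, whose protein is cleaved by caspase-8 to carry a death receptor signal to mitochondria, stood at 2.26 CPM (58 reads), 1.30 (27), 1.61 (37) and 2.08 (39) and was lowest in WT isoproterenol.

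Of the mitophagy receptors, Bnip3 stood at 109 CPM in WT saline, 86.3 in WT isoproterenol, 113 in KO saline and 155 in KO isoproterenol. The isoproterenol libraries thus lay on opposite sides of the saline libraries. Bnip3l, also called Nix, stood at 56.1 CPM, 51.1, 53.3 and 62.3 in the same order, a far narrower spread.

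**Figure D1:**
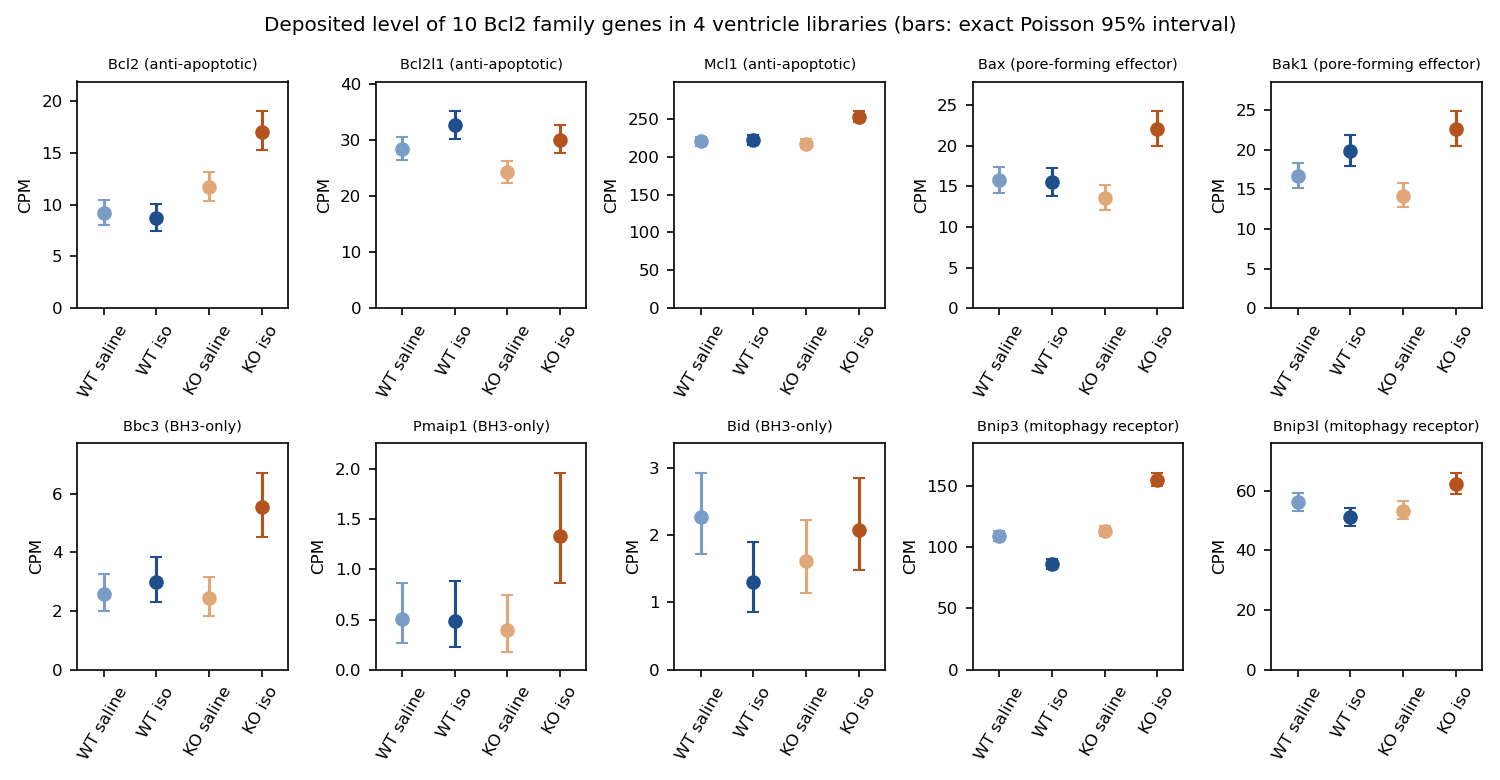
Deposited level (CPM, linear axis from 0) of each of the 10 genes in the 4 libraries, with exact Poisson 95% intervals of the read count (counting error only). The interval of KO isoproterenol (KO iso) lies above those of the other libraries for Bcl2, Mcl1, Bax, Bbc3 and Bnip3. Mcl1 nevertheless stays between 217 and 253 CPM. Pmaip1 is also highest in KO isoproterenol, but its interval there overlaps those of both WT libraries.

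Ratios between libraries are of reads after TMM scaling, which lines up the bulk of genes between libraries, and carry a 95% counting interval. They compare 2 libraries and not the conditions, since no group has a replicate. A gene was counted when the interval as a whole lay past 1.5-fold in either direction. The 14301 genes tested averaged 10 reads or more over the libraries, and all 10 family genes passed that minimum. Of these 10, 0 were counted in any of the 4 pairwise comparisons or between the responses of the genotypes. A weaker mark, used beside it, is an interval that excludes no change. With deep libraries that mark is met by 21.4% to 54.8% of all tested genes. The median log2 ratio of all tested genes lay within 0.00292 of 0 in each comparison.

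The first comparison asks what isoproterenol does to the family in WT ventricle. Differences were small and mixed. Bak1 was 1.26-fold higher in the treated library (1.09 to 1.44), Bcl2l1 1.21-fold (1.09 to 1.35) and Mcl1 1.06-fold (1.02 to 1.11), so an effector and 2 guardians lay on the same side. Bnip3 was 1.20-fold lower (1.13 to 1.27) and Bid 1.63-fold lower (1.02 to 2.70). Bcl2 (1.002-fold, 0.820 to 1.22), Bax (1.04-fold, 0.897 to 1.21), Bbc3 (1.23-fold, 0.854 to 1.76), Pmaip1 (1.02-fold, 0.395 to 2.48) and Bnip3l (1.04-fold lower, 0.960 to 1.13) did not differ beyond counting error. Of the 10 genes 0 were beyond 1.5-fold, where 1.66% of all tested genes were. The 3 genes higher and 2 lower beyond counting error compare with 15.3% and 16.1% of all genes. The family's median log2 ratio was 0.04. With total-count scaling, which uses the deposited CPM as they stand, the Mcl1 ratio was 1.01 (0.968 to 1.05) and no longer excluded no change, while Bnip3l, at a ratio of 0.910 (0.839 to 0.985), did.

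The second comparison asks the same of ventricle without P2Y6. All 10 ratios were above 1, against 49.95% of those of all tested genes. Pmaip1 was 2.89-fold higher in the treated KO library (1.35 to 7.29), Bbc3 1.99-fold (1.43 to 2.82), Bax 1.43-fold (1.23 to 1.66) and Bak1 1.40-fold (1.21 to 1.63), so that 2 of the 3 BH3-only genes and both effectors lay above counting error. Bcl2 was 1.29-fold higher (1.09 to 1.52) and Bnip3 1.21-fold (1.15 to 1.28). Bcl2l1 (1.09-fold, 0.971 to 1.23), Mcl1 (1.03-fold, 0.986 to 1.07), Bid (1.14-fold, 0.706 to 1.83) and Bnip3l (1.03-fold, 0.951 to 1.12) did not differ beyond counting error.

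In this KO pair 0 of the 10 genes were beyond 1.5-fold, against 11.3% of all tested genes, and 6 were higher and 0 lower beyond counting error, against 27.2% and 27.6%. The median log2 ratio of the 10 was 0.32. Scaling matters here, because total counts put the median of all genes at 0.18. With total-count scaling Bbc3 (2.26-fold) and Pmaip1 (3.28-fold) were beyond 1.5-fold, as were 12.6% of all tested genes. Then 9 of the 10 genes were higher beyond counting error, against 42.5% of all genes. The treated KO library also held 7 of 10 macrophage markers, 8 of 8 markers of dividing cells, 5 of 9 fibroblast and 4 of 7 atrial markers beyond 1.5-fold higher than KO saline, and 4 of 10 cardiomyocyte, 1 of 9 fibroblast and 1 of 7 atrial markers lower. With total-count scaling the higher ones were 7 of 10 macrophage, 8 of 8 dividing-cell, 6 of 9 fibroblast and 4 of 7 atrial markers. The lower ones were then 2 of 10 cardiomyocyte, 0 of 9 fibroblast and 0 of 7 atrial markers. The part of this shift of markers in the family's ratios was not tested.

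**Figure D2:**
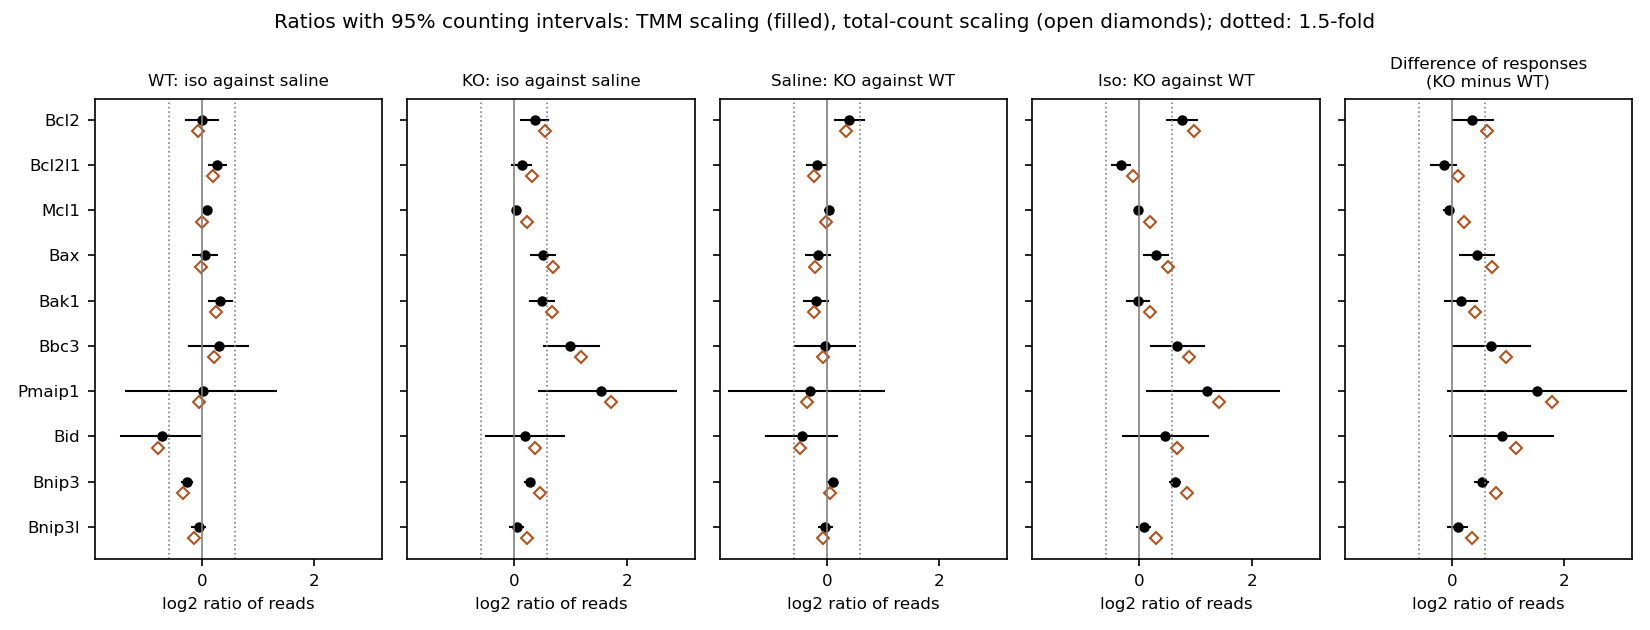
Log2 ratio of reads for each gene in the 4 pairwise comparisons and for the difference between responses, with 95% counting intervals under TMM scaling (filled) and the point value under total-count scaling (open diamonds). Dotted lines mark 1.5-fold, and under TMM scaling no interval lies wholly beyond them.

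The third comparison asks what loss of P2Y6 does to the family without isoproterenol. Bcl2 was 1.32-fold higher in the KO saline library (1.10 to 1.58) and Bnip3 1.07-fold (1.02 to 1.13). Bcl2l1 was 1.14-fold lower (1.02 to 1.27). The effectors were at ratios below 1 without passing counting error, Bax 1.12-fold lower (0.962 to 1.30) and Bak1 1.14-fold lower (0.982 to 1.32). Bbc3 (1.02-fold lower, 0.704 to 1.48), Pmaip1 (1.23-fold lower, 0.495 to 3.31), Bid (1.35-fold lower, 0.883 to 2.11), Mcl1 (1.02-fold higher, 0.983 to 1.06) and Bnip3l (1.02-fold lower, 0.943 to 1.10) did not differ beyond counting error either. Of the 10 genes 0 were beyond 1.5-fold, as were 0.489% of all tested genes, and the median log2 ratio was -0.09. The 2 genes higher and 1 lower beyond counting error compare with 11.2% and 10.2% of all genes. With total-count scaling the Bnip3 ratio was 1.04 (0.983 to 1.10) and no longer excluded no change, and Bak1, at a ratio of 0.851 (0.734 to 0.984), did.

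The fourth comparison sets KO against WT under isoproterenol. Bcl2 was 1.69-fold higher in KO (1.41 to 2.04) and Bnip3 1.55-fold (1.46 to 1.65), and both intervals began just under the 1.5-fold line. Pmaip1 was 2.31-fold higher (1.11 to 5.56), Bbc3 1.59-fold (1.16 to 2.23) and Bax 1.22-fold (1.06 to 1.42). Bcl2l1 went the other way, 1.26-fold lower (1.12 to 1.41). Bid (1.37-fold higher, 0.821 to 2.34), Bak1 (1.02-fold lower, 0.886 to 1.17), Mcl1 (1.01-fold lower, 0.974 to 1.06) and Bnip3l (1.05-fold higher, 0.969 to 1.15) did not differ beyond counting error. A guardian (Bcl2), an effector (Bax), 2 BH3-only genes and a mitophagy receptor were therefore all higher in the KO library, and another guardian (Bcl2l1) lower.

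Of the 10 genes 0 were beyond 1.5-fold, against 6.0% of all tested genes. The 5 higher and 1 lower beyond counting error compare with 22.8% and 22.2%, and the median log2 ratio of the 10 was 0.37. With total-count scaling the median log2 ratio of all genes was 0.22. Bcl2 (1.96-fold) and Bnip3 (1.80-fold) were then beyond 1.5-fold, as were 8.08% of all tested genes. The Bcl2l1 ratio was then 0.922 (0.823 to 1.03) and did not exclude no change, and Mcl1 turned from a ratio of 0.985 to 1.14 (1.10 to 1.19). This comparison and the KO response share the KO isoproterenol library, whose macrophage, fibroblast, atrial and dividing-cell markers stood high, and the part of that in these ratios was not tested.

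**Figure D3:**
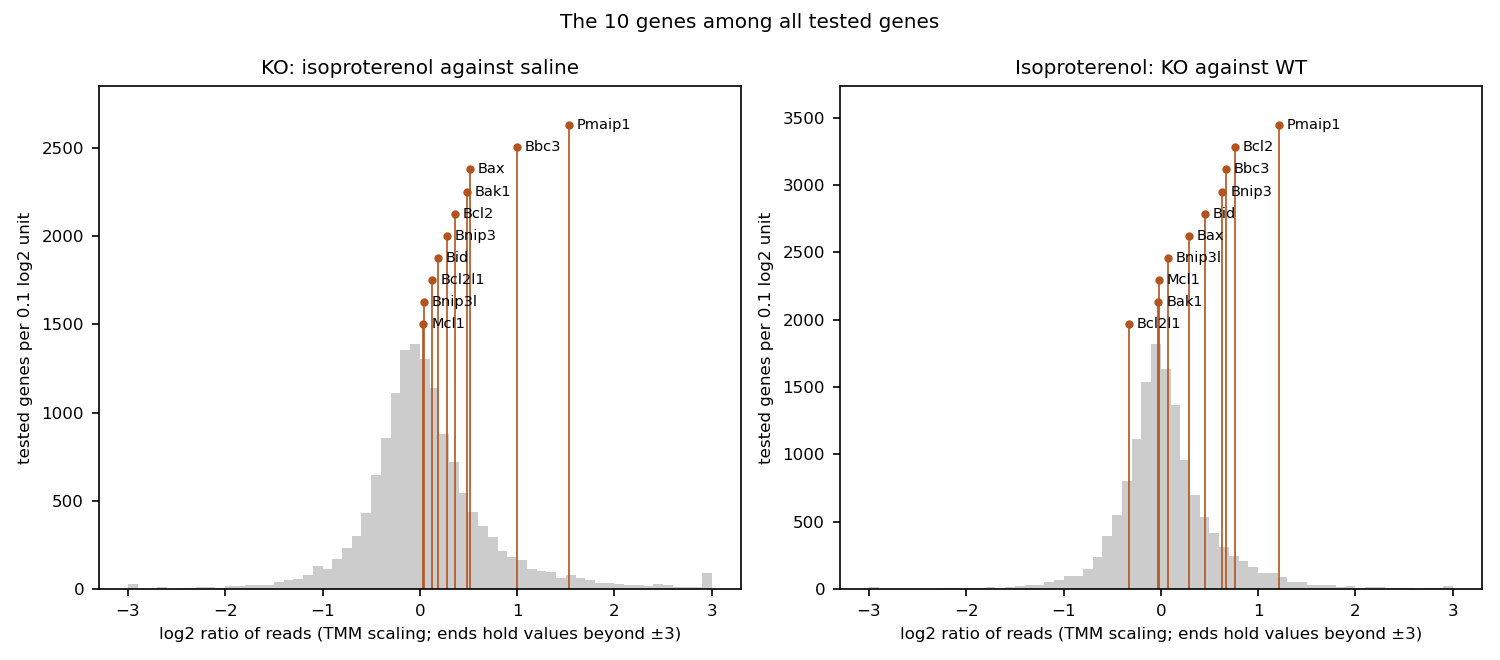
Number of tested genes per 0.1 log2 unit of the ratio (grey bars) for KO isoproterenol against KO saline and against WT isoproterenol, with the 10 genes marked (their height only separates the names). Mcl1 and Bnip3l sit near the middle of all genes in both panels, while Pmaip1 lies above 96.4% of them in the first and 97.1% in the second. That place is uncertain, as it rests on 25 reads of Pmaip1 in KO isoproterenol, 9 in KO saline and 10 in WT isoproterenol.

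The difference between the isoproterenol responses of the genotypes asks whether loss of P2Y6 altered the response of the family. Bnip3 had the narrowest interval away from 0, with a log2 difference (KO minus WT) of 0.53 (0.42 to 0.65), or 1.44-fold (1.33 to 1.57). Its ratio was below 1 in WT and above 1 in KO, each beyond counting error and under each of the 4 scalings tried. The difference was 1.37-fold for Bax (1.11 to 1.68) and 1.62-fold for Bbc3 (1.01 to 2.61). Pmaip1 (2.85-fold, 0.949 to 8.53), Bid (1.85-fold, 0.978 to 3.49), Bcl2 (1.28-fold, 0.998 to 1.65) and Bak1 (1.12-fold, 0.916 to 1.36) had differences above 1 that did not exclude no change at this depth. So did Bnip3l at 1.07-fold (0.959 to 1.20), while Bcl2l1 (1.11-fold lower, 0.946 to 1.30) and Mcl1 (1.04-fold lower, 0.981 to 1.10) lay below 1. Of the 10 genes 0 were beyond 1.5-fold, against 5.57% of all tested genes, and 3 had a higher and 0 a lower response in KO beyond counting error, against 18.9% and 20.4%. With total-count scaling the Bnip3 difference was 1.73-fold and beyond 1.5-fold, as were 8.02% of all tested genes. All 10 differences were then above 1, and 9 were higher beyond counting error, against 41.7% of all tested genes. The median of all genes was itself 0.26 on the log2 scale. With 1 library a group nothing estimates the error of such a difference, which was therefore not tested.

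Ratios of 2 genes within a library are free of scaling between libraries. The ratio of Bax to Bcl2, often read as effector against guardian, was 1.72 reads to 1 in WT saline (1.46 to 2.03) and 1.79 in WT isoproterenol (1.49 to 2.16). It was 1.17 in KO saline (0.989 to 1.38) and 1.29 in KO isoproterenol (1.11 to 1.502). Both KO libraries lay below both WT libraries. The ratio was 1.47-fold lower in KO than in WT under saline (1.17 to 1.85) and 1.38-fold lower under isoproterenol (1.10 to 1.75), in 2 pairs that share no library. Isoproterenol and saline did not differ in it beyond counting error in WT (1.04-fold higher, 0.816 to 1.33) or KO (1.11-fold higher, 0.890 to 1.38). These ratios hold for Bcl2 only, the guardian with the fewest reads. KO isoproterenol held 414 reads of Bax, 564 of Bcl2l1 and 4747 of Mcl1, and WT isoproterenol 322, 675 and 4590. Bax relative to either of these guardians was thus higher in KO under isoproterenol. Under saline the same reads were 313, 556 and 4988 in KO and 404, 729 and 5642 in WT. Intervals for these pairs were not computed.

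The ratio of Bnip3 to its paralog Bnip3l was 1.94 in WT saline (1.82 to 2.07), 1.69 in WT isoproterenol (1.57 to 1.83), 2.12 in KO saline (1.98 to 2.28) and 2.49 in KO isoproterenol (2.33 to 2.67). It was 1.15-fold lower with isoproterenol in WT (1.04 to 1.27) and 1.17-fold higher in KO (1.07 to 1.29). These ratios show Bnip3 relative to Bnip3l and not the direction of Bnip3 alone. The ratio of Mcl1 to Bcl2l1 was 7.74 in WT saline (7.16 to 8.37), 6.80 in WT isoproterenol (6.27 to 7.38), 8.97 in KO saline (8.22 to 9.81) and 8.42 in KO isoproterenol (7.71 to 9.20). It was 1.16-fold higher in KO under saline (1.03 to 1.30) and 1.24-fold higher under isoproterenol (1.10 to 1.39). These are ratios of reads and not of molecules, since the transcripts differ in length.

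**Figure D4:**
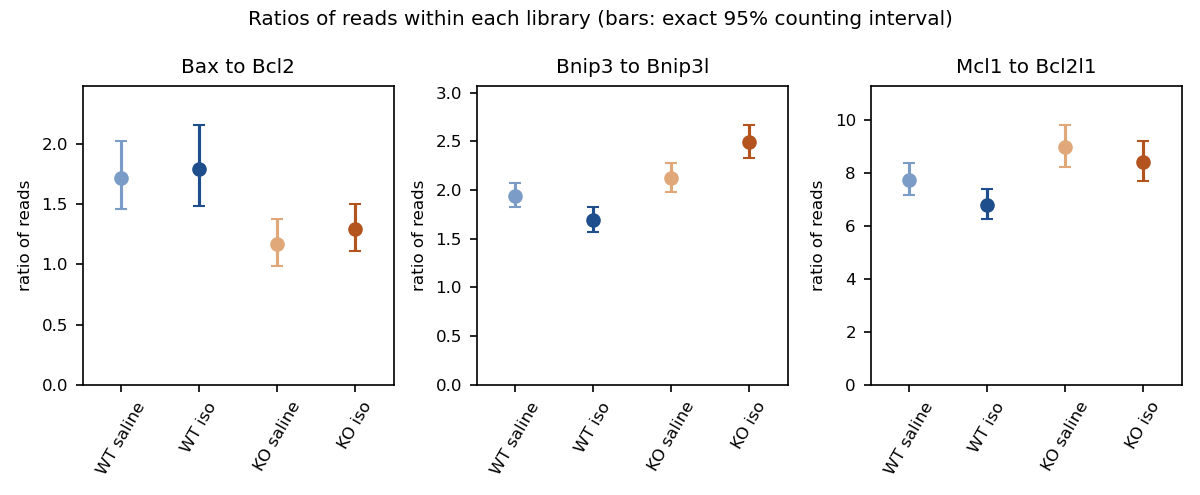
Ratio of reads of 2 genes in each library (linear axes from 0), with exact 95% counting intervals. Bax to Bcl2 lies at 1.17 and 1.29 in the KO libraries and at 1.72 and 1.79 in the WT libraries, and Bnip3 to Bnip3l is lowest in WT isoproterenol (WT iso) and highest in KO isoproterenol (KO iso).

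A fit of genotype and treatment together over the 4 libraries (limma on log2(CPM + 1), 1 residual degree of freedom per gene) called 0 of the 10 genes in either term at an adjusted p of 0.05. It called 2.57% of all tested genes by treatment and 0.0979% by genotype. By genotype, Bcl2 had an effect of 0.61 ± 0.24 (log2, SE; limma unadjusted p = 0.0224, adjusted p = 1) and Bnip3 one of 0.45 ± 0.18 (unadjusted p = 0.0261, adjusted p = 1), and these 2 were the only family genes with an unadjusted p under 0.05 in that term, a mark met by 4.1% of all tested genes. For Bnip3 the unadjusted p was 0.0724 in limma on TMM-scaled CPM, 0.0765 in edgeR and 0.121 in DESeq2, and for Bcl2 it was 0.0174, 0.0127 and 0.0760 in the same order, with adjusted p-values of 0.996 or more. By treatment 0 of the 10 had an unadjusted p under 0.05 in limma on log2(CPM + 1), against 13.0% of all tested genes. The nearest were Bak1 with 0.43 ± 0.22 (log2, SE; limma unadjusted p = 0.0596, adjusted p = 0.417) and Bbc3 with 0.54 ± 0.27 (limma unadjusted p = 0.0600, adjusted p = 0.418). The edgeR quasi-likelihood test and DESeq2 on recovered reads also called 0 of the 10 in either term. In edgeR, and also in limma on TMM-scaled CPM, 1 of the 10 had an unadjusted p under 0.05 by treatment (Bak1) and 1 by genotype (Bcl2). Of the 14301 genes tested, 2171 by treatment and 519 by genotype met that mark in edgeR, and 2011 and 412 in limma on TMM-scaled CPM. The fit puts any difference of responses, such as that of Bnip3, into its residual.

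Of the 10 genes, 3 lie on chromosome 7 (GRCm38), which also carries the targeted P2ry6 at 100937630 to 100974649. Bnip3 (ENSMUSG00000078566, 138890836 to 138909519, minus strand) lies 37.9 Mb from P2ry6, Bax (ENSMUSG00000003873, 45461697 to 45466898, minus strand) 55.5 Mb and Bbc3 (ENSMUSG00000002083, 16308393 to 16318205, plus strand) 84.6 Mb. Bcl2 (ENSMUSG00000057329) lies on chromosome 1 at 106538178 to 106714274. Bcl2 and Bak1 overlap genes on the opposite strand, and Bid overlaps the family member Bcl2l13 there. The kit keeps strand, but the counting setting is not given in the sources used here, so reads of such partners may be mixed or dropped.

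Bnip3, Bax and Bbc3 were all higher in KO isoproterenol than in KO saline beyond counting error. Their upstream sequences are shown because, of the members searched, these were also the ones with ACGTG before a start site. ACGTG is the core of the hypoxia response element. RefSeq promoters (GRCm38.p6) of 8 of the 10 genes were searched, with 12 start sites. Pmaip1 and Bnip3l were not searched, so the counts do not cover them. ACGTG on either strand occurred in the 250 bases before 3 of the 12 start sites. Capitals mark the match, which in each case is the palindrome CACGTG and so reads ACGTG on both strands and is also an E-box.

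Bnip3, chr7:138909507-138909756 (minus strand): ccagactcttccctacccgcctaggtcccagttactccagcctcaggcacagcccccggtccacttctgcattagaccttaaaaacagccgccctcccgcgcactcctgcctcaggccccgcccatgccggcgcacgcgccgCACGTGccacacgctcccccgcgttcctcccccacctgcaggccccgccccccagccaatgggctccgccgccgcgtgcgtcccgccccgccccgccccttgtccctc

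Bax, chr7:45466899-45467148 (minus strand): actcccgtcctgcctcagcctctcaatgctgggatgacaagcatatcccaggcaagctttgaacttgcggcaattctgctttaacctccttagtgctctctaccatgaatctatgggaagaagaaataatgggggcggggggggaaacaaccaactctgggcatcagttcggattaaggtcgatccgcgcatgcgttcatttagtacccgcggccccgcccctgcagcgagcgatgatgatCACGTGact

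Bbc3, the start site farthest along the gene, chr7:16310181-16310430 (plus strand): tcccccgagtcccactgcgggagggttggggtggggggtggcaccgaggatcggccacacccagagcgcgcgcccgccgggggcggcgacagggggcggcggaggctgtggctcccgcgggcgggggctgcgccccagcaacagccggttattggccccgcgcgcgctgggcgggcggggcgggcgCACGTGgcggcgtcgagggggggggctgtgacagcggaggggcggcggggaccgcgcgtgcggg

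The palindrome begins 108 bases before the start of Bnip3, 9 before that of Bax and 64 before this start of Bbc3. Over all RefSeq start sites, 16.6% of windows of the same length held ACGTG and 6.02% held CACGTG. The p53 half-site, which reads the same on both strands, was also searched and matched 1 of the 12 windows, that of Bax, against 7.13% of all windows. A match describes the letters and is no evidence of binding. Bcl2 and Bak1, higher in the same comparison, had no ACGTG in their windows, and Pmaip1, also higher in it, was not searched.

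Other genes of the pathway were read from lists by role. Of the other guardians 1 of 5 had enough reads, Bcl2l2, at 48.2 to 51.9 CPM and 0 beyond 1.5-fold. The Bcl2a1 genes, near-identical copies that share reads, stayed below the read minimum. Of 3 tested multidomain relatives 1 was beyond 1.5-fold in the KO pair. Bok, an effector-like relative, stood at 4.02 CPM in WT saline, 4.63 in WT isoproterenol, 3.92 in KO saline and 9.75 in KO isoproterenol, 2.19-fold higher in the KO pair (1.69 to 2.85). Of 6 other BH3-only genes 0 were beyond 1.5-fold in any comparison. Among them Bad was 1.60-fold higher in the KO pair (1.33 to 1.94) and beyond 1.5-fold only with total-count scaling, while Bcl2l11, which encodes Bim, was 1.36-fold lower (1.17 to 1.59).

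Downstream, 1 of 15 apoptosome and caspase genes was higher and 1 lower beyond 1.5-fold in the KO pair (median log2 ratio 0.04). The lower gene was Endog, which encodes a mitochondrial nuclease, at 2.41-fold (2.001 to 2.93). Apaf1, the scaffold of the apoptosome, was 1.71-fold higher (1.43 to 2.053) and beyond 1.5-fold only with total-count scaling. Of 7 inhibitors of apoptosis 1 was higher, Birc5 at 5.63-fold (3.19 to 11.4), a gene of dividing cells that is also in the marker list of these (median 0.04). In the WT pair 0 genes of either list were beyond 1.5-fold.

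Upstream, p53 is known to drive Bax, Bbc3 and Pmaip1. Of 16 genes of p53 and its targets, 3 were higher and 1 lower in the WT pair (median 0.03), and 4 higher and 2 lower in the KO pair (median 0.11). The cell cycle inhibitor Cdkn1a was 1.76-fold higher in WT (1.55 to 2.01) and 3.72-fold in KO (3.26 to 4.26), and Phlda3 1.80-fold (1.52 to 2.14) and 3.36-fold (2.86 to 3.99). Gadd45a was 2.53-fold lower in the KO pair (2.03 to 3.19) and Btg2 was lower in both pairs, by 1.96-fold (1.76 to 2.18) and 1.67-fold (1.51 to 1.84). With total-count scaling 0 were higher and 1 lower in WT, and 5 higher and 1 lower in KO, on the 1.5-fold rule.

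Around Bnip3, 0 of 16 hypoxia-inducible genes were beyond 1.5-fold in the WT pair (median -0.04), and in the KO pair 0 were higher and 1 lower (median 0.23). That gene was Egln1, an oxygen-sensing hydroxylase, 1.59-fold lower (1.54 to 1.64) and 1.40-fold lower with total-count scaling, under which it was not counted. Between the isoproterenol libraries P4ha1, a collagen hydroxylase, was 1.80-fold higher in KO (1.65 to 1.97). Of 19 mitophagy and autophagy genes 2 were lower in the KO pair (median -0.12), the kinases Pink1 by 1.77-fold (1.71 to 1.82) and Ulk1 by 1.64-fold (1.54 to 1.75). In the WT pair 1 was higher, the autophagosome protein gene Map1lc3a at 1.89-fold (1.84 to 1.95). Of 12 genes of the mitochondrial pore and of mitochondrial dynamics 2 were lower in the KO pair (median -0.25), the nucleotide carrier Slc25a4 by 1.65-fold (1.63 to 1.67) and the fusion protein gene Mfn2 by 1.55-fold (1.51 to 1.58). With total-count scaling Slc25a4, Mfn2 and Ulk1 were no longer beyond 1.5-fold in the KO pair, while P4ha1 (1.74-fold higher) and Map1lc3a (1.69-fold higher) then were. Between the isoproterenol libraries Hif1a, the oxygen-regulated factor itself, was 1.51-fold higher in KO (1.41 to 1.61) and beyond 1.5-fold only with that scaling, at 1.75-fold. Pink1, Slc25a4 and Mfn2 were thus lower where Bnip3 was higher, in the library in which summed cardiomyocyte markers were also lower.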

How the data were processed

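The 4 ventricle libraries were made with a stranded mRNA kit, per the labels' protocols. The authors deposited CPM, counted with HTSeq on GRCm38.p4 (mm10) per the submitters' processing notes. The aligner, annotation and strand setting were not given in the sources used here. Headers without a treatment were taken as saline. All values above 0 (100%) are whole multiples of 1 read within 0.01 reads, so reads were recovered. Of 24267 genes above 0, 14301 had a mean of at least 10 reads.

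Ratios of counts plus 0.5 used TMM factors from edgeR 4.0.16 and exact conditional 95% intervals. These cover counting error only, because 1 library per group leaves no replicate error. PCR copies of a molecule could not be told apart, so each read was taken as independent. The difference of responses has a normal 95% counting interval. The additive fit used limma 3.58.1 on deposited log2(CPM + 1) with Benjamini-Hochberg adjustment over all genes and called 368 genes by treatment and 14 by genotype. On recovered reads edgeR called 22 and 3 and DESeq2 1.42.0 called 174 and 13. The limma fit was also run on simulated counts with set treatment effects, and the outcome is not reported here. Exon lengths came from GENCODE M21 (GRCm38), whose IDs matched 46091 of 46603 genes.

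The members, lists and tests were chosen with earlier results of these data known. The text names all 10 members, P2ry6, up to 4 listed genes beyond 1.5-fold per list and comparison, and the genes of most similar profile to a member beyond 1.5-fold, of which there were 0. Bcl2l2, Bad, Bcl2l11, the listed genes given as passing with total-count scaling alone and the ACGTG search were chosen after values were seen. A listed gene that the rule takes in is not reported here.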

Additional observations from a re-analysis of the deposited data

Results flagged for a closer look

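Bnip3 was the member whose isoproterenol and saline libraries differed beyond counting error in opposite directions in the 2 genotypes. It went from 109 CPM with saline to 86.3 CPM with isoproterenol in WT, and from 113 to 155 CPM in KO. The log2 difference of the responses was 0.53 (0.42 to 0.65). It was not tested, because each group has 1 library. The KO isoproterenol library, on which the KO response rests, also had higher summed macrophage, fibroblast and atrial markers. Its summed cardiomyocyte markers were lower, although in CPM that list was split between genes. Under TMM scaling 1 of 10 cardiomyocyte markers had a ratio above 1 against KO saline (median log2 ratio -0.37). Against WT isoproterenol it was also 1 of 10 (median -0.38). The part of these markers in the result was not tested.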

How the results depend on the processing

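The 1.5-fold counts of members, 0 in each of the 5 comparisons, stayed at 0 with DESeq2 size factors, with TMM without mitochondrially encoded genes, with no filter on low counts, with a mean of at least 50 reads, with an interval beyond 2-fold and with 1 added to each count. With total-count scaling they became 2 for the KO response, 2 for KO against WT under isoproterenol and 1 for the difference of responses, and with the lower of the alternative folds again 2, 2 and 1. The members were Bbc3 and Pmaip1, then Bcl2 and Bnip3, then Bnip3, in both settings. The cause was not tested for the scaling, while a lower fold admits more genes by construction. Total-count scaling moved the share of higher among all genes called from 51.9% to 40.6% in the WT response, from 62.7% to 80.2% in the KO response, from 69.9% to 90.3% for KO against WT under isoproterenol and from 68.8% to 92.6% in the difference of responses.

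Genes called by treatment in the additive fit, 368, became 174 (DESeq2), 22 (edgeR), 647 (log2(CPM + 0.1)), 965 (no filter on low values) and 1 (TMM-scaled CPM, 2011 at an unadjusted p under 0.05). Those by genotype, 14, became 3 (edgeR), 60 (log2(CPM + 0.1)), 22 (log2(CPM + 0.5)), 195 (no filter) and 0 (limma on TMM-scaled CPM, 412 at an unadjusted p under 0.05). The cause was not tested, and 0 members were called in any of these fits. Of the 50 member ratios, 14 moved outside their counting interval with total-count scaling and 0 with the other scalings. Within-library ratios kept within their intervals with 0.5 added to each count. No paired analysis was possible because each group has 1 library. Depth limits Pmaip1, at 9 to 25 reads, and Bid, at 27 to 58 reads.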

Other observations

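Few death receptor and FoxO genes passed the 1.5-fold rule. Of 6 necroptosis and death receptor adaptor genes 0 were beyond 1.5-fold in any comparison by TMM scaling, with a median log2 ratio of 0.08 for WT and 0.52 for KO libraries (isoproterenol against saline). With total-count scaling Tnfrsf1a was beyond 1.5-fold in the KO pair (1.78-fold higher), and Ripk3 (2.18-fold higher) and Mlkl (1.97-fold higher) in KO against WT under isoproterenol. Of 9 FoxO factors and targets 0 were beyond 1.5-fold in either isoproterenol response (medians -0.08 and -0.33), and Klf15 was 1.71-fold lower in KO than in WT under isoproterenol (1.53 to 1.91), or 1.47-fold with total-count scaling and then not counted.

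Of 10 immediate early genes, which are induced within minutes of a stimulus, 4 were lower in the WT pair (median -0.55) and 2 in the KO pair (median -0.37), 1 of these with total-count scaling. Nr4a1 was 5.87-fold lower in WT (5.08 to 6.85) and 3.34-fold lower in KO (2.91 to 3.84), and Fos 4.17-fold (2.82 to 6.58) and 2.24-fold (1.66 to 3.08). Mcl1, a short-lived guardian whose transcript is also induced early, stood at 217 to 253 CPM in these libraries.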
